A study of Mus musculus with 7 samples.

Results

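The genes described here make, cut, bind and take up hyaluronan. They were chosen by symbol from the deposited table: the synthases Has1, Has2 and Has3, the hyaluronidases Hyal1 and Hyal2, the receptors Cd44, Lyve1, Stab2 and Hmmr, and the secreted binding protein Tnfaip6. All 10 were present among the 22173 genes of the table. The choice was made with earlier results of these data known. Messenger RNA had been sequenced in 7 libraries from mouse spleen, and each n below counts libraries. Whether each library is a separate animal is not stated in the labels. For 4 of the libraries the spleen had been remodelled with repeated injections of sHA-X, a biomaterial known here by that name alone. For the other 3 it had received phosphate-buffered saline (PBS). In all 7 the spleen had then received an injection of hepatocytes, the main cells of the liver, and was taken 30 days later. The labels do not spell out the name sHA-X, and strain, age and sex of the mice are not given in the sources used here. The stated purpose concerned genes of liver metabolism, and the title of the series names liberation of TGF-β, so the comparison of hyaluronan genes is one that the design allows and not one that the labels name.

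Hyaluronan is a long, unbranched and unsulfated chain of alternating glucuronic acid and N-acetylglucosamine. Synthases in the plasma membrane extrude it into the matrix, hyaluronidases cut it, and lysosomal glycosidases remove sugars from the fragments. In the spleen, as in liver and lymph nodes, endothelial cells of the sinuses clear circulating hyaluronan, mainly through the scavenger receptor stabilin-2, the product of Stab2. Leukocytes hold on to the polymer through CD44, and lymphatic endothelium and some tissue macrophages carry LYVE1.

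Of the 10 genes, Lyve1 and Hyal2 were higher in sHA-X spleens, at 19.1 and 1.33 times their PBS means. The other 4 genes tested, Hyal1, Cd44, Stab2 and Hmmr, did not pass the test, and none was lower. Has1, Has2, Has3 and Tnfaip6 fell under the minimum of 1 FPKM (fragments scaled to transcript length and library size) on average over the 7 libraries that the test required. Lyve1 passed that minimum only through the sHA-X group. Tnfaip6, whose product crosslinks hyaluronan to other proteins, stood at 3.95 times its PBS mean, with no overlap between the groups, but did not reach the threshold. The count of 2 higher and 0 lower among 6 tested is set beside 9.3% higher and 5.03% lower of all 11920 genes tested, or 1108 and 600 genes (limma on log2(FPKM + 1), adjusted p under 0.05). At an unadjusted p under 0.05, and by limma-voom on recovered reads, the count was likewise 2 higher and 0 lower. No test sets the count of members against that share. The split of higher against lower calls over all genes depended on the scaling, with 1265 (10.6%) against 417 after rescaling to TPM, 843 (7.07%) against 738 with upper quartile scaling and 758 (6.36%) against 938 with quantile normalization. Lyve1 and Hyal2 were called higher under each of these. Their libraries did not overlap between the groups, which with sHA-X higher was so for 17.2% of genes tested. The median log2 change was 0.18 over the 6 tested members and 0.03 over all genes tested.

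**Figure D1:**
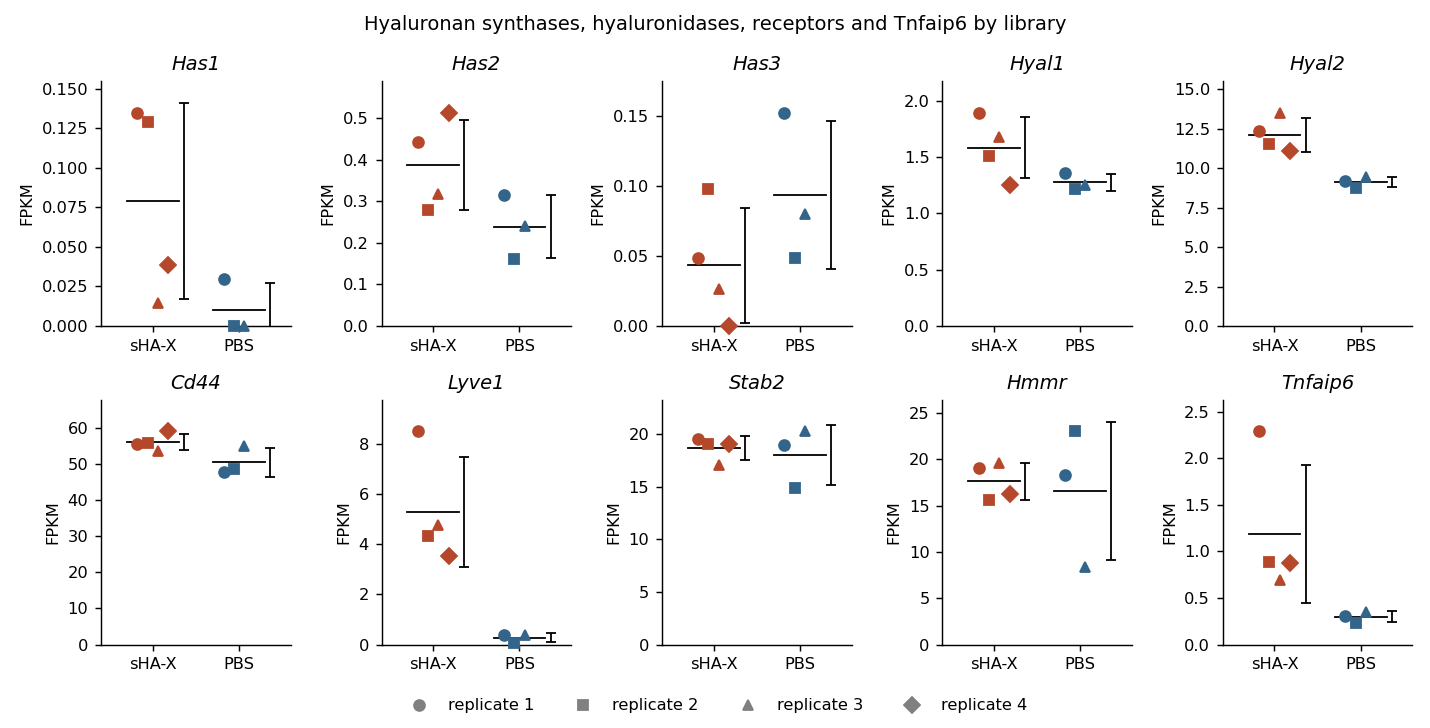
FPKM of the 10 genes in each library, with sHA-X spleens at the left and PBS spleens at the right of each panel. Horizontal lines are group means, vertical bars 1 SD to each side, cut at 0. Groups do not overlap for Hyal2, Lyve1 and Tnfaip6, where the sHA-X points all lie above the PBS points. The vertical scale differs between panels.

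Each library held between 29543963 and 37142218 reads, as recovered from the steps of the FPKM values. The spleen label went with high B cell transcripts in all 7 libraries (Cd79a 414 to 488 FPKM in sHA-X and 578 to 700 FPKM in PBS libraries) and with Spic, which red pulp macrophages depend on (101 to 114 FPKM in sHA-X and 65.2 to 82.8 FPKM in PBS libraries). Several libraries carried transcripts of other tissues. Summed FPKM of 5 pancreatic acinar genes was 586 in PBS replicate 2, against 15.4 to 35.1 in the other libraries. Summed FPKM of 5 skeletal muscle genes was 151 in sHA-X replicate 2, against 4.52 to 9.999 elsewhere. That library also had the highest sums of 4 adipocyte genes (10.6, against 0.0413 to 3.44 elsewhere) and 4 mesothelial genes (28.7, against 6.44 to 19.5). Summed FPKM of 6 genes of hepatocytes, the injected cells, was 686 and 707 in sHA-X replicates 3 and 4, against 2.73 to 21.5 elsewhere. In PBS replicate 3, all 10 genes of a list for cycling cells were at their lowest. Macrophage and fibroblast lists moved with the treatment: 10 of 12 macrophage genes and 6 of 7 fibroblast genes were called higher in sHA-X spleens, and 4 of 6 B and T cell genes lower. The shares over all genes tested were 9.3% higher and 5.03% lower. In bulk tissue, more cells of a type and more RNA per cell cannot be told apart.

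The synthases were close to the lower limit of the measurement. Has2, the main synthase of mesenchymal cells, was the highest of the 3 in each library, with between 55.1% and 93.0% of their summed FPKM. Its values, by replicate number, were 0.443, 0.278, 0.317 and 0.512 FPKM in sHA-X libraries, against 0.315, 0.162 and 0.239 FPKM in PBS libraries. The groups overlapped, since the second sHA-X library lay below the first PBS library. These values stood for 221 reads in the sHA-X libraries and 99 in the PBS libraries. The ratio of these read rates was 1.65, with a 95% interval of 1.29 to 2.11 that covers counting error only, while the exact permutation test over libraries (two-sided, 35 splits) gave p = 0.14 for the difference in mean FPKM.

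Has1, a second synthase, was at 0.135, 0.129, 0.0143 and 0.0385 FPKM in the sHA-X libraries, against 0.0297, 0 and 0 FPKM in the PBS libraries. In reads this was 9, 8, 1 and 3 against 2, 0 and 0, and sHA-X replicates 1 and 2 held 17 of the 23. The 2 PBS libraries without a read still allow up to 0.0449 and 0.0429 FPKM each, the level of 3 reads. With 21 reads against 2, the ratio of rates was 7.74, with a counting interval of 1.89 to 68.1, and the groups overlapped (exact permutation p = 0.14, two-sided).

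Has3, the synthase known for shorter chains, ran the other way without passing the test. Its values were 0.0488, 0.0976, 0.0266 and 0 FPKM in sHA-X libraries and 0.152, 0.0488 and 0.0799 FPKM in PBS libraries, or 24 reads against 41. The sHA-X library at 0 allows up to 0.0179 FPKM. The ratio of read rates was 0.432 (counting interval 0.249 to 0.731), and the exact permutation p over libraries was 0.26 (two-sided). For none of the 3 synthases could a direction be called over libraries. Has2 and Has3 share 4.3% and 5.52% of their exonic bases with genes on the opposite strand in the GENCODE M21 annotation of GRCm38, and since the strand setting of the kit is not given, reads of those stretches are uncertain.

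The enzymes that supply the sugar precursors were expressed at higher levels than the synthases. Of 7 tested precursor genes, 1 was called higher and 0 lower (5 and 0 at an unadjusted p under 0.05). The groups did not overlap for 4 of them, Uap1, Gfpt1, Gfpt2 and Pgm3, all with sHA-X higher. Over all genes tested, 9.3% were called higher and 5.03% lower, and 17.2% had groups apart with sHA-X higher. The called gene was Gfpt2, an amidotransferase at the entry to the hexosamine pathway, at 2.32, 1.18, 1.07 and 1.19 FPKM in sHA-X libraries against 0.437, 0.340 and 0.602 FPKM in PBS libraries (log2 change 0.72 ± 0.17 SE, limma adjusted p = 0.027). The first sHA-X library was well above its 3 companions, all of which still lay above each PBS library. The adjusted p of Gfpt2 was 0.096 without PBS replicate 1, 0.080 without PBS replicate 2 and 0.16 after quantile normalization. Gfpt2 passed the minimum of 1 FPKM only through the sHA-X group, with a mean of 1.02 FPKM over the 7 libraries, and it fell under it without sHA-X replicate 1, 2 or 4. Ugdh, which makes UDP-glucuronic acid, averaged 21.2 ± 2.2 FPKM in sHA-X and 18.6 ± 1.2 FPKM in PBS spleens (SD, n = 4 and 3), with overlapping groups (limma adjusted p = 0.21).

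Hyal2 encodes a hyaluronidase anchored in the cell membrane that cuts long chains to intermediate length. It was the higher of the 2 hyaluronidases in each library. Among Hyal1, Hyal2 and Hyal3 it held 85.1% to 88.5% of the summed FPKM in sHA-X libraries and 82.3% to 86.8% in PBS libraries. Its values were 12.4, 11.5, 13.5 and 11.1 FPKM in sHA-X libraries, against 9.18, 8.75 and 9.43 FPKM in PBS libraries. The lowest sHA-X library was above the highest PBS library. Means were 12.1 ± 1.07 FPKM and 9.12 ± 0.344 FPKM (SD, n = 4 and 3), a log2 change of 0.37 ± 0.07 SE (limma adjusted p = 0.015). The call rested on few libraries, since the adjusted p was 0.062 without PBS replicate 1 and 0.073 without the second library of each group. The log2 change stayed between 0.32 and 0.42 over all 21 alternatives.

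Hyal1 encodes the lysosomal hyaluronidase that takes the shorter chains further. It was at 1.89, 1.51, 1.68 and 1.25 FPKM in sHA-X libraries, against 1.36, 1.21 and 1.25 FPKM in PBS libraries. The fourth sHA-X library lay within the PBS range. The log2 change was 0.18 ± 0.10 SE, with a 95% interval from -0.05 to 0.41 (limma adjusted p = 0.28). Hyal1 shares 50.8% of its annotated exonic bases with Naa80 on the same strand, a gene that averaged 8.60 FPKM in sHA-X and 8.32 FPKM in PBS spleens. How reads of the shared bases were counted is not given, so the Hyal1 value may be too high or too low. The shares of the 3 hyaluronidases and the ratio of Hyal2 to Hyal1 carry the same limit. The ratio of Hyal2 to Hyal1 averaged 7.75 ± 0.95 in sHA-X and 7.16 ± 0.40 in PBS libraries and did not differ beyond the spread (exact permutation p = 0.40, two-sided).

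The 2 hyaluronidase genes lie head to tail on mouse chromosome 9, Hyal2 at positions 107567873 to 107572778 and Hyal1 at 107576950 to 107581699 of GRCm38, 4171 bases apart. Their promoters are shown to set neighbours beside each other. Each sequence runs from 250 bases before to 50 bases after a RefSeq start, on the plus strand of GRCm38.p6, from chr9:107568913-107569212 for Hyal2 and from chr9:107576700-107576999 for Hyal1. The Hyal2 window lies inside the gene span given above, so its start is an internal one. The start used for Hyal1 is the first base of its gene. The motifs searched on both strands were CAGAC, the SMAD element of TGF-β signalling; TGANTCA, the AP-1 element; and the NF-kB element. Capitals mark the matches.
Hyal2: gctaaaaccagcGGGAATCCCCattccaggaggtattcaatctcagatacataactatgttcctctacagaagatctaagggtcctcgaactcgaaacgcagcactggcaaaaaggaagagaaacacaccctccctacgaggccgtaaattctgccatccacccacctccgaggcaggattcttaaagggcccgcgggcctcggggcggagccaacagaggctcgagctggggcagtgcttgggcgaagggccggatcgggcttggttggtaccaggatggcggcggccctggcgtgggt
Hyal1: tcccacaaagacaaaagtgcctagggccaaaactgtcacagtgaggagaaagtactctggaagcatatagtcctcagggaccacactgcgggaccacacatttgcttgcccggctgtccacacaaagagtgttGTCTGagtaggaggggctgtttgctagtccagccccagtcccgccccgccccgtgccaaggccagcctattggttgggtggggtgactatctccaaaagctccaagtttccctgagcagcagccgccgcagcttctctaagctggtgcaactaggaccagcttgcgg
The capitals in Hyal2 are an NF-kB match that begins 238 bases before the start and reads on both strands. The NF-kB motif occurs in 8.49% of the 32544 RefSeq mouse promoters of this length. The capitals in Hyal1 are the SMAD motif read on the minus strand, beginning 117 bases before the start. SMAD matches are common, in 49.5% of all promoters. Hyal2 held neither the SMAD nor the AP-1 letters in this window, and Hyal1 neither the AP-1 nor the NF-kB letters.

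Further along the route of breakdown, Hexa, the alpha subunit of lysosomal hexosaminidase A, was higher in sHA-X spleens. It averaged 97.0 ± 2.80 FPKM in sHA-X and 69.5 ± 7.63 FPKM in PBS spleens (log2 change 0.48 ± 0.08 SE, limma adjusted p = 0.0055). Gusb, the lysosomal glucuronidase, did not pass (limma adjusted p = 0.18). Cemip2, a cell surface protein of hyaluronan breakdown, overlapped between the groups at 4.50 ± 0.29 FPKM in sHA-X and 4.05 ± 0.44 FPKM in PBS spleens. Cemip, which takes part in hyaluronan breakdown at the cell surface and is named here after its values were seen, was at 2.85 to 3.40 FPKM in sHA-X and 3.53 to 4.59 FPKM in PBS libraries. It did not pass (log2 change -0.30 ± 0.09 SE, limma adjusted p = 0.067), and 5 of its 21 alternatives called it lower, 2 of them without PBS replicate 2 (adjusted p = 0.035 and 0.049). Of 7 tested genes of cleavage and turnover, 2 were called higher and 0 lower (3 and 1 at an unadjusted p under 0.05). The shares over all genes tested were 9.3% called higher and 5.03% lower.

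Lyve1, a receptor with a hyaluronan-binding link domain, had the largest change of the 10 genes. It lies on chromosome 7 at positions 110850607 to 110862953 of GRCm38. It was at 8.52, 4.32, 4.77 and 3.56 FPKM in sHA-X libraries, against 0.393, 0.0720 and 0.367 FPKM in PBS libraries. In reads this was 709, 334, 416 and 346 against 33, 6 and 32. The lowest sHA-X library stood far above the highest PBS library, and the first sHA-X library was the highest of all. Means were 5.29 ± 2.21 FPKM in sHA-X and 0.277 ± 0.178 FPKM in PBS spleens (SD, n = 4 and 3). The log2 change was 2.25 ± 0.25 SE on the log2(FPKM + 1) scale, which understates the change of a gene this low in one group (limma adjusted p = 0.0021). By size of that change Lyve1 stood 11th from the top of the 1108 genes called higher. Lyve1 passed the minimum of 1 FPKM only through the sHA-X group, since its PBS mean lay under it. In limma without a filter the adjusted p of Lyve1 was 0.0044. It was called under each of 21 alternatives, with adjusted p between 0.00098 and 0.033.

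LYVE1 is carried by lymphatic endothelium, by some sinus endothelium and by subsets of tissue macrophages, so its level was set beside markers of each. Of 6 lymphatic markers, Pdpn and Flt4 were called higher and none lower, beside 9.3% and 5.03% of all genes tested. Pdpn, which encodes podoplanin and is also carried by reticular fibroblasts, was at 8.04, 3.70, 3.80 and 3.32 FPKM in sHA-X libraries against 1.23, 0.817 and 1.10 FPKM in PBS libraries (limma adjusted p = 0.014). Flt4, the receptor of lymphatic growth factor VEGF-C, averaged 5.28 ± 1.18 FPKM in sHA-X and 3.31 ± 0.09 FPKM in PBS spleens (limma adjusted p = 0.035), a call lost in 8 of 21 alternatives. Prox1, the transcription factor that defines lymphatic endothelium, was at 1.92, 1.94, 1.60 and 1.81 FPKM in sHA-X and 1.52, 1.27 and 1.91 FPKM in PBS libraries. Its groups overlapped and it did not pass (log2 change 0.14 ± 0.10 SE, limma adjusted p = 0.41). Summed FPKM of the 6 lymphatic markers was 164 to 346 in sHA-X and 238 to 291 in PBS libraries, and none of the 6 was at 0 in any library. Most of that sum was Ccl21a, a chemokine, at 147 to 328 FPKM in sHA-X and 224 to 277 FPKM in PBS libraries. The other 5 markers summed to 16.3 to 24.96 FPKM in sHA-X and 13.5 to 14.99 FPKM in PBS libraries.

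The endothelial list gave a mixed picture beside Lyve1. Of 10 sinusoidal and blood endothelial markers, Clec4g and Ramp2 were called higher, Oit3 was called lower and 7 did not pass. Among all genes tested, 9.3% were called higher and 5.03% lower. Clec4g, a lectin of liver and lymph node sinus endothelium, averaged 24.7 ± 2.15 FPKM in sHA-X and 5.85 ± 0.659 FPKM in PBS spleens (limma adjusted p = 3.7e-05). Cdh5, the cadherin shared by all endothelium, averaged 16.5 ± 1.72 FPKM in sHA-X and 17.5 ± 2.12 FPKM in PBS spleens (limma adjusted p = 0.68). Summed FPKM of the list was 221 to 240 in sHA-X and 175 to 232 in PBS libraries.

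Macrophage and fibroblast lists moved with Lyve1 more widely. Summed FPKM of the 12 macrophage markers was 1526 to 1698 in sHA-X and 798 to 986 in PBS libraries, with Timd4 and Csf1r as the 2 that did not pass. Folr2, a folate receptor of resident perivascular macrophages, was at 7.56, 2.64, 6.39 and 4.82 FPKM in sHA-X and 0.982, 0.659 and 0.562 FPKM in PBS libraries (log2 change 1.81 ± 0.29 SE, limma adjusted p = 0.0098). Folr2 and Vsig4, another gene of the list, passed the minimum of 1 FPKM only through the sHA-X group. Timd4, a receptor of resident macrophages, averaged 32.7 ± 5.34 FPKM in sHA-X and 41.2 ± 6.31 FPKM in PBS spleens, with overlapping groups (limma adjusted p = 0.20). Summed FPKM of the 7 fibroblast markers was 330 to 503 in sHA-X and 108 to 159 in PBS libraries. The part of any of these cell types in the level of Lyve1 was not tested.

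Beside most of these markers Lyve1 stood out by size, but not beside all. Lum, which encodes the matrix proteoglycan lumican and belongs to the fibroblast list, was at 22.3, 16.5, 16.3 and 9.52 FPKM in sHA-X libraries, against 1.09, 0.286 and 1.01 FPKM in PBS libraries. Its mean was 20.3 times higher in sHA-X spleens, about as much as that of Lyve1 (limma adjusted p = 0.0018). Like Lyve1, Lum passed the minimum of 1 FPKM only through the sHA-X group. The ratio of Lyve1 to Lum was 0.262 to 0.383 in sHA-X and 0.251 to 0.364 in PBS libraries, so these ranges overlapped. The ratio of Lyve1 to Vsig4, a complement receptor of resident macrophages, overlapped as well, at 0.455 to 4.29 in sHA-X and 0.15 to 0.672 in PBS libraries. For the other 33 of the 35 markers in the 4 lists, the ratio of Lyve1 to the marker was higher in every sHA-X library than in any PBS library. The lowest Lyve1 value in sHA-X libraries was 3.56 FPKM and the highest in PBS libraries 0.393 FPKM. A marker with a small change therefore had to give this result, and the share over all genes was not computed. These ratios were computed after the values had been seen and all contain the same Lyve1 values, so they are given as a description without a test.

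**Figure D2:**
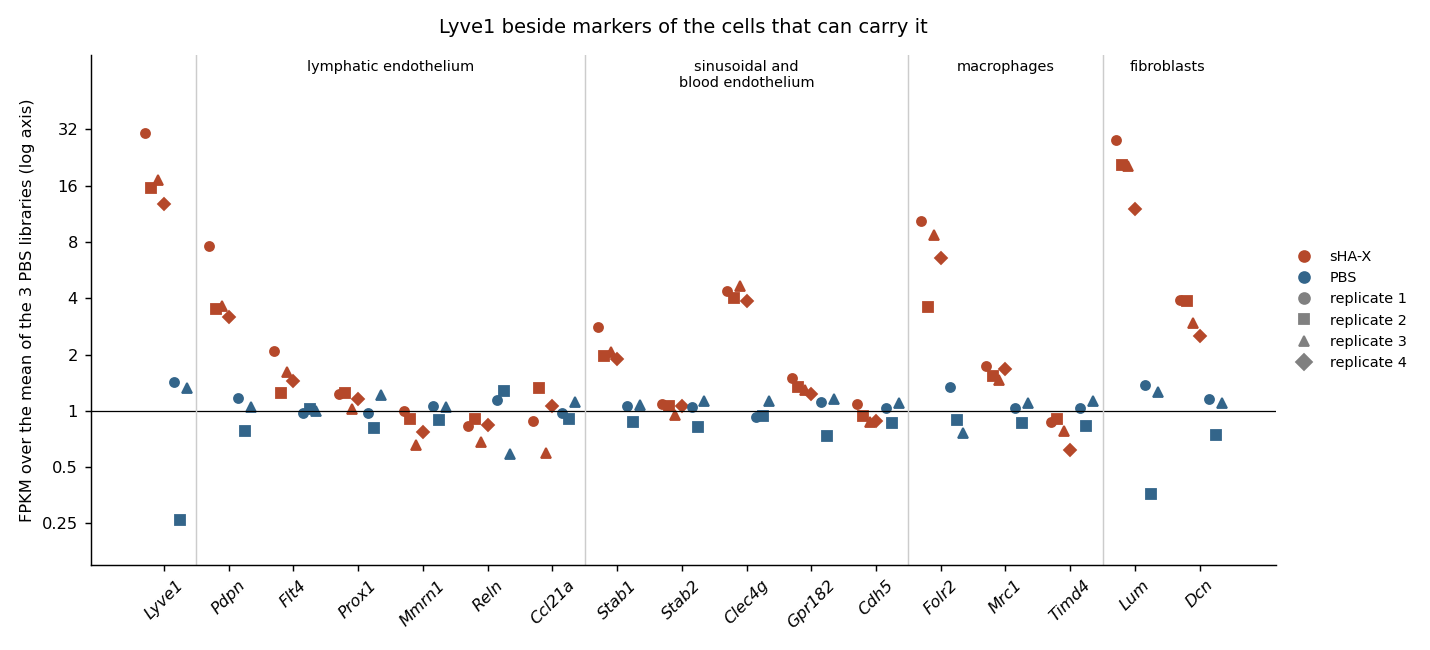
FPKM of Lyve1 and of markers of lymphatic endothelium, sinusoidal and blood endothelium, macrophages and fibroblasts, each divided by its mean over the 3 PBS libraries (log axis, 1 point per library). Lyve1 lies at 12.8 to 30.7 in the sHA-X libraries, while Prox1, Stab2 and Cdh5 lie near 1 in both groups.

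Stab2 and Stab1 encode the 2 stabilins, large scavenger receptors of sinus endothelium, and differed from each other. Stab2 was at 19.6, 19.1, 17.1 and 19.1 FPKM in sHA-X libraries, against 19.0, 14.9 and 20.3 FPKM in PBS libraries. The groups overlapped, with both the lowest and the highest value among PBS libraries. The log2 change was 0.06 ± 0.10 SE, with a 95% interval from -0.17 to 0.29 (limma adjusted p = 0.75). It was -0.07 without PBS replicate 2, the library with acinar transcripts, so no direction can be given for Stab2. Stab1, which macrophages also carry, was at 10.8, 7.51, 7.98 and 7.24 FPKM in sHA-X libraries, against 4.08, 3.35 and 4.11 FPKM in PBS libraries. All 4 sHA-X libraries lay above the PBS libraries (log2 change 0.94 ± 0.13 SE, limma adjusted p = 0.0033). The ratio of Stab1 to Stab2 averaged 0.448 ± 0.079 in sHA-X and 0.214 ± 0.011 in PBS libraries, with no overlap, a ratio computed after the values had been seen and given without a test.

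Cd44, the widely expressed hyaluronan receptor of leukocytes, was the most abundant of the 10 genes per length. It was at 55.4, 55.9, 53.6 and 59.0 FPKM in sHA-X libraries, against 47.7, 48.7 and 55.0 FPKM in PBS libraries. The third PBS library lay within the sHA-X range. The log2 change was 0.15 ± 0.07 SE, with a 95% interval from -0.002 to 0.30 (limma adjusted p = 0.17). Without PBS replicate 3 it was called higher, at a log2 change of 0.21 (limma adjusted p = 0.045). PBS replicate 3 was the library with the lowest cycling transcripts. Of 6 markers of monocytes and neutrophils, leukocytes that carry CD44, 3 were called higher and 0 lower by limma (5 and 0 at an unadjusted p under 0.05, 3 and 0 by limma-voom). Their summed FPKM was 2937 to 4424 in sHA-X and 1657 to 2683 in PBS libraries. Most of that sum was S100a8 and S100a9, which were not called (limma adjusted p = 0.12 and 0.11). Of 6 markers of B and T cells, also leukocytes, 4 were called lower and 0 higher. Among all genes tested, limma called 9.3% higher and 5.03% lower. The part of these cells in the level of Cd44 was not tested.

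Hmmr encodes RHAMM, a hyaluronan-binding protein that is also a spindle component of dividing cells. It was at 19.0, 15.6, 19.6 and 16.3 FPKM in sHA-X libraries, against 18.3, 23.0 and 8.37 FPKM in PBS libraries. The PBS group held both the highest and the lowest library, and the sHA-X libraries lay between them. The log2 change was 0.18 ± 0.32 SE, with a 95% interval from -0.61 to 0.98 (limma adjusted p = 0.76), and without PBS replicate 3 it was -0.22 (limma adjusted p = 0.26). No direction can be given for Hmmr.

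Across libraries Hmmr went with the cycling list. Divided by its mean over the 7 libraries, Hmmr was at 1.34 in PBS replicate 2, where the 10 cycling genes ran from 1.36 to 1.53, and at 0.488 in PBS replicate 3, where they ran from 0.419 to 0.614. Mki67, the Ki-67 gene, was at 145 and 39.8 FPKM in these 2 libraries, against 77.7 to 113 FPKM in the other 5. Top2a, a topoisomerase of dividing cells, was at 102 and 42.0 FPKM there. None of the 10 cycling genes was called by limma in either direction, at an unadjusted p under 0.05 or by limma-voom on recovered reads. The ratio of Hmmr to Mki67 lay between 0.159 and 0.210 over all 7 libraries, a narrower range than that of Hmmr itself, and overlapped between the groups. The ratio of Hmmr to Top2a was 0.231 to 0.256 in sHA-X and 0.199 to 0.225 in PBS libraries, without overlap (exact permutation p = 0.057, two-sided).

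**Figure D3:**
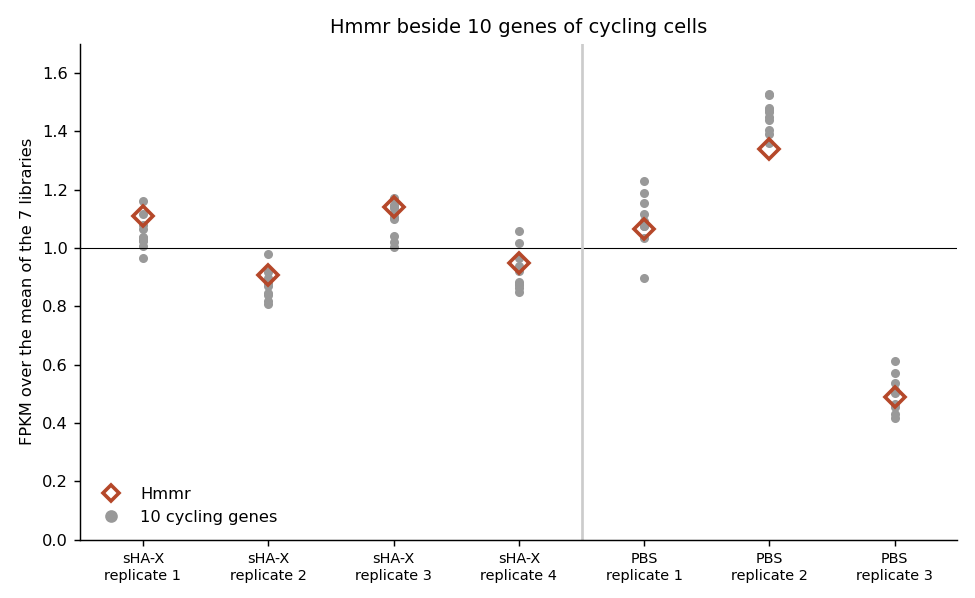
FPKM of Hmmr (open diamonds) and of 10 genes of cycling cells (grey points), each divided by its own mean over the 7 libraries, by library. Hmmr follows the cycling genes, up at 1.34 in PBS replicate 2 and down at 0.488 in PBS replicate 3.

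The promoter of Hmmr is shown because this gene moved together with the cycling genes. It spans chr11:40733388-40733687 of GRCm38.p6 on the minus strand, from 250 bases before to 50 after the RefSeq start. Capitals mark CCAAT boxes, read here on the minus strand as ATTGG, and TTTGAA, the letters of the cell cycle homology region (CHR). Both motifs were added after the values had been seen.
Hmmr: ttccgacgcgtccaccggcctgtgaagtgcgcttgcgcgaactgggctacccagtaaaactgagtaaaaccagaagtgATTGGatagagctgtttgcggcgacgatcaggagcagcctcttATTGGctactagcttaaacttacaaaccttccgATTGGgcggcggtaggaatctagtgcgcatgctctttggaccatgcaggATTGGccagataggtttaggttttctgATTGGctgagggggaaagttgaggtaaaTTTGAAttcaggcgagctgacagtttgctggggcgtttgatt
The window held 5 CCAAT boxes, which began 172, 129, 96, 47 and 20 bases before the start, and 1 CHR match at base 9 after it. CCAAT occurs in 37.4% and TTTGAA in 17.8% of the 32544 promoters of this length, on either strand. No SMAD, AP-1 or NF-kB letters were found in this window. The Has1 promoter also held both the CCAAT and the CHR letters, and those of Hyal1 and Tnfaip6 held CCAAT. Capitals do not mark these in the printed sequences of Hyal1 and Tnfaip6.

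Tnfaip6 encodes TSG-6, a secreted protein induced by inflammatory signals that moves heavy chains of inter-alpha-inhibitor onto hyaluronan. It was at 2.29, 0.884, 0.691 and 0.871 FPKM in sHA-X libraries, against 0.311, 0.234 and 0.355 FPKM in PBS libraries. In reads this was 117, 42, 37 and 52 against 16, 12 and 19. All sHA-X libraries lay above the PBS libraries, and the first stood far above its companions. Means were 1.18 ± 0.742 FPKM and 0.300 ± 0.061 FPKM (SD, n = 4 and 3). The exact permutation p for the difference was 0.057 (two-sided), and limma without a filter gave a log2 change of 0.70 (adjusted p = 0.11). The difference of means was 0.884 FPKM over all libraries and 0.516 FPKM without sHA-X replicate 1. Groups that do not overlap, with sHA-X higher, made up 8.92% of genes under the filter.

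The Tnfaip6 promoter is printed because it was the only one of the 7 member promoters in the RefSeq table with an AP-1 match. It spans chr2:52037863-52038162 of GRCm38.p6 on the plus strand.
Tnfaip6: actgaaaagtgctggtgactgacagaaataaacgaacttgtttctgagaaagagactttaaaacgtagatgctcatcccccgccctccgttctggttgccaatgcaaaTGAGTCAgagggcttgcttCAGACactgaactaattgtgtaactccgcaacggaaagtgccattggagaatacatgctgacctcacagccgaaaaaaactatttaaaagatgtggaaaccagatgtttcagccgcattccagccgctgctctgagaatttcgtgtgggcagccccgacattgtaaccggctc
The first capitals are the AP-1 letters, beginning 142 bases before the start, and the second are the SMAD letters, beginning 123 bases before it. AP-1 matches occur in 7.79% of all promoters of this length. Of the other 6 promoters, the SMAD letters were found in Has1, Hyal1 and Stab2, and none of the 3 motifs in Cd44 or Hmmr. A match is a run of letters and not a measured binding site.

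Other listed proteins that bind hyaluronan, secreted or not, and their partners fell into several patterns. Of 10 tested, C1qbp and Bgn were called higher and none lower, beside 9.3% and 5.03% of all genes tested. Vcan, the large matrix proteoglycan versican, was just under the filter, with groups that did not overlap. It was at 1.56, 1.31, 1.19 and 1.79 FPKM in sHA-X libraries, against 0.268, 0.317 and 0.248 FPKM in PBS libraries, 5.28 times higher on average (exact permutation p = 0.029, two-sided, the smallest possible). In limma without a filter its log2 change was 0.94 ± 0.09 SE (adjusted p = 0.0033). Bgn, the small proteoglycan biglycan, averaged 225 ± 19.6 FPKM in sHA-X and 164 ± 20.8 FPKM in PBS spleens (log2 change 0.46 ± 0.10 SE, limma adjusted p = 0.022). C1qbp, a mitochondrial and surface protein also known as hyaluronan-binding protein 1, averaged 91.2 ± 7.02 FPKM in sHA-X and 75.3 ± 2.05 FPKM in PBS spleens (limma adjusted p = 0.034), a call lost in 10 of 21 alternatives. Bgn lost its call in 6 of 21.

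Ptx3, a pentraxin that acts with TSG-6 in matrices rich in hyaluronan, varied widely within the sHA-X group. It was at 7.84, 0.140, 1.71 and 2.57 FPKM in sHA-X libraries, against 0.0162, 0.0163 and 0 FPKM in PBS libraries. In reads this was 481, 8, 110 and 184 against 1, 1 and 0. The groups did not overlap, yet the gene did not pass (limma adjusted p = 0.17). Its highest sHA-X value was 55.9 times its lowest.

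Several listed genes from the family of the partners that TSG-6 acts on were high in 2 libraries. Itih1, Itih2, Itih3 and Itih4 belong to the inter-alpha-inhibitor heavy chain family, and Ambp encodes the light chain bikunin, all made mainly by hepatocytes. Ambp was at 0.148, 0.772, 30.2 and 25.8 FPKM in sHA-X libraries, against 0.0245, 0.173 and 0.0236 FPKM in PBS libraries. Itih1 was at 0, 0.164, 4.08 and 3.64 FPKM in sHA-X libraries, against 0, 0.0710 and 0 FPKM in PBS libraries. Alb, the albumin gene, was at 325 and 370 FPKM in the same sHA-X replicates 3 and 4, and at 0.272 to 8.49 FPKM in the other 5 libraries. None of these genes passed the test, with limma adjusted p between 0.19 and 0.40 for these heavy chains and 0.30 for Ambp. Itih5, another listed gene of the family, did not follow Alb. It was at 3.40, 4.29, 2.35 and 3.54 FPKM in sHA-X libraries, against 3.51, 3.23 and 3.23 FPKM in PBS libraries (limma adjusted p = 0.98). Tnfaip6 was not highest where Ambp and Itih1 were: Tnfaip6 peaked in sHA-X replicate 1, where Ambp was at 0.148 FPKM.

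**Figure D4:**
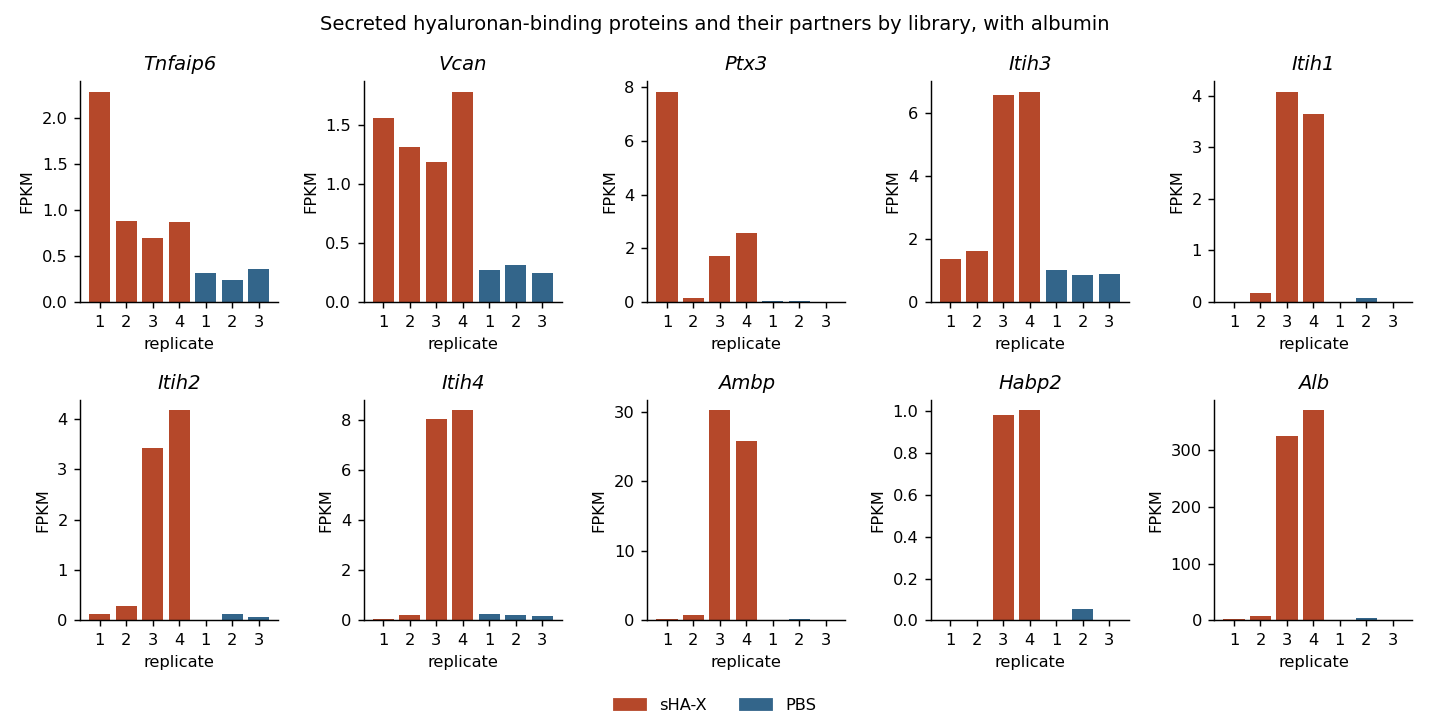
FPKM of Tnfaip6 and of other secreted hyaluronan-binding proteins and their partners in each library, with Alb for comparison. Bars are single libraries, sHA-X replicates 1 to 4 at the left and PBS replicates 1 to 3 at the right. Itih1, Itih2, Itih3, Itih4, Ambp and Habp2 stand high in sHA-X replicates 3 and 4 with Alb, while Tnfaip6 and Ptx3 are highest in sHA-X replicate 1 and Vcan is raised in all 4.

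Among 8 listed receptors, all tested, Lyve1, Stab1, Tlr2 and Tlr4 were called higher and none lower. Tlr2 and Tlr4 are receptors of innate immunity that have been linked to fragments of hyaluronan. Tlr2 averaged 10.1 ± 1.07 FPKM in sHA-X and 6.29 ± 0.842 FPKM in PBS spleens (log2 change 0.60 ± 0.10 SE, limma adjusted p = 0.0079), and this call was kept under all 21 alternatives. Tlr4 averaged 11.1 ± 0.385 FPKM in sHA-X and 8.31 ± 1.15 FPKM in PBS spleens (log2 change 0.39 ± 0.09 SE, limma adjusted p = 0.021), a call lost in 5 of 21 alternatives. Over the 4 lists together, 9 of 32 tested genes were called higher and 0 lower (14 and 1 at an unadjusted p under 0.05, 9 and 1 by limma-voom, the lower one being Cemip), 23 did not pass, and 18 of the 50 listed fell under the filter. Over all genes tested, 9.3% were called higher and 5.03% lower. The count of 9 was 5 without the second library of each group, 5 without sHA-X replicate 1, 5 without PBS replicate 1 and 13 without PBS replicate 3. Limma-voom without the filter, added after the values had been seen, called 10 higher and 2 lower of 42 listed genes tested. Over all 16075 genes of that fit, 1092 were called higher and 675 lower. The median log2 change of the 32 genes was 0.27, against 0.03 for all genes tested. Lyve1, Gfpt2, Ptx3, Itih1, Itih2, Itih3, Itih4 and Ambp passed the minimum of 1 FPKM only through the sHA-X group. The filter thus lets in genes that are high in sHA-X libraries, which can raise this median and the count of 9. Macrophage and fibroblast transcripts moved in the same direction as these calls, and their part in them was not tested.

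**Figure D5:**
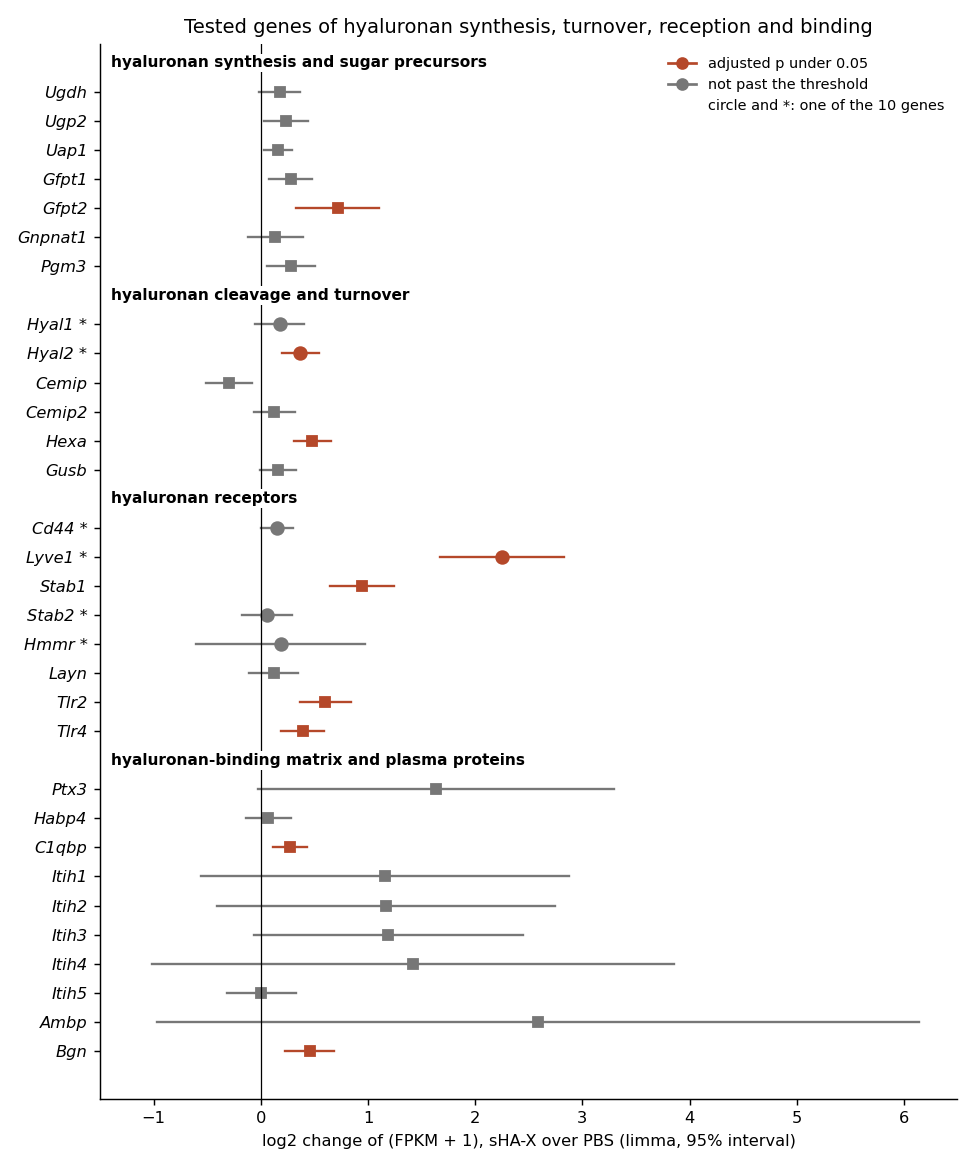
Log2 change of (FPKM + 1), sHA-X over PBS, for 31 of the 32 tested genes of the 4 hyaluronan lists, with 95% intervals from limma. Red marks the 9 genes with an adjusted p under 0.05, all to the right of 0, and circles mark the tested members. Lyve1 lies furthest right of the red points, at 2.25.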

How the data were processed

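The authors deposited 1 value per gene and library; the header names no unit. The values were read as FPKM because within a gene they are whole multiples of 1 step. From these steps whole reads (within 0.02 of a read) followed for each of 16889 genes with values in 2 or more libraries, but not for 704 genes with a value in 1. The build mm10 and the tools HTSeq, HISAT2, fastp, DESeq2 and R 3.2.0 stand in the submitters' processing notes, without roles. Per the labels' protocols, libraries were built with a VAHTS Universal V6 kit. The sources used here do not say whether it keeps strand.

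The deposited FPKM were taken to log2 (pseudocount 1 FPKM) and tested with limma 3.58.1 (trend, robust variance) in R 4.3.3, with group as the only term, for 11920 genes with a mean of at least 1 FPKM; 10253 were left out. P-values were adjusted by Benjamini-Hochberg over all genes tested, called under 0.05. Single values and genes under the minimum had a two-sided exact permutation test over 35 splits (smallest p 0.0286). Intervals of read-rate ratios are exact binomial (Clopper-Pearson) and cover counting error only, as do the limits from 3 reads for a count of 0. Whether libraries are separate animals is not stated in the labels; p-values therefore measure only the spread between them.

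The 10 genes and all gene lists were chosen with earlier results of these data known. Named were all members, every called gene of 4 hyaluronan lists and 12 further genes; others are list members given with their list. Of these, 1 gene is counted in its list and not reported here. Promoters came from RefSeq for 7 of the 10 members, on GRCm38.p6. The fit was tested on simulated data. Alternatives covered pseudocount, filter, scaling, variance model, recovered reads (limma-voom), left-out libraries and a replicate block.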

Additional observations from a re-analysis of the deposited data

Results flagged for a closer look

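In 4 of 28 groups of 4 sHA-X libraries examined, 1 library stood apart from the other 3 by Dixon's criterion at 95%; chance gives about 1 in 20. Tnfaip6 was at 2.29 FPKM in sHA-X replicate 1, with a gap of 0.879 of the range. Pdpn was at 8.04 FPKM and Gfpt2 at 2.32 FPKM in the same library. C1qbp was at 102 FPKM in sHA-X replicate 3. Of 18 genes of the hyaluronan lists whose sHA-X libraries all lay above the PBS libraries, 8 were highest in sHA-X replicate 1. Over all genes, groups lay apart in this way for 17.2% of those tested and 8.92% of those under the filter.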

How the results depend on the processing

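Over 21 alternatives the calls of Lyve1, Stab1, Tlr2 and Folr2 were kept, and those of Hyal2, Hexa, Tlr4, C1qbp, Bgn, Pdpn and Flt4 were each lost in at least 1. Gfpt2 lost its call in 4 of 17, and was under the minimum in the other 4. Over all genes, leaving out 1 library at a time gave 488 to 1263 higher and 228 to 637 lower. Without both second libraries the counts were 492 and 330. Quantile normalization gave 938 lower. Replicate numbers did not pair the libraries: deviations of same-numbered libraries correlated at 0.15, -0.214 and -0.286. With the replicate block the counts were 304 and 86, 3 of 29 tested hyaluronan genes were called higher, Hyal2 had an adjusted p of 0.062 and Lyve1 stayed called. Stab2 reversed without PBS replicate 2 (-0.066) and without both second libraries (-0.076), and Hmmr without PBS replicate 3 (-0.215; up to 0.463 without another library). Mki67 reversed without PBS replicate 3 (-0.487; up to 0.433) and without sHA-X replicate 3 (-0.0085). Top2a reversed in the same 2 (-0.344 and -0.0039; up to 0.289), with upper quartile scaling (-0.012) and with quantile normalization (-0.027). The causes were not tested. For the 4 members under the minimum, leaving out 1 library moved the difference in mean FPKM between 0.0507 and 0.0908 for Has1, 0.107 and 0.187 for Has2, -0.0728 and -0.0211 for Has3, and 0.516 and 1.05 for Tnfaip6. With so few splits their exact p could not pass the threshold, which says nothing about stability. Depth limits Has1 and Has3, with 23 and 65 reads over all libraries (Has2 320, Tnfaip6 295). The recovered-read fit added after seeing the data called 0 of these 4 (Tnfaip6 adjusted p 0.079).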
